A study of Rattus norvegicus with 9 samples.

Results

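The genes described here are 39 heat shock and unfolded protein response genes, chosen by symbol from a count table of 28343 genes. They comprise 18 cytosolic and mitochondrial heat shock genes, with their regulator Hsf1, and 21 genes of the endoplasmic reticulum (ER) stress response. Of the 39, 38 had a line in the table, since Hspe1 had none, and 34 had enough counts to be tested (14 heat shock and 20 ER genes). They were measured by RNA sequencing in retinal microglia, the resident immune cells of the retina, from rats of the inbred Dark Agouti strain. The 4 diabetic libraries came from rats injected at 8 to 10 weeks of age, after 12 hours without food, with 55 mg/kg of streptozotocin, which destroys the insulin-producing cells of the pancreas. Their blood glucose was labelled hyperglycaemic, and readings above 30 mmol/l were treated with 2 units of insulin. The 5 control libraries came from rats given citrate buffer and labelled as having normal blood glucose. The same age and the same 12 hours without food are listed for the controls. All retinas were taken 4 weeks after the injection. Cells from papain-digested whole retina were sorted on CD11b, a surface protein that blood and border myeloid cells carry too, and their RNA was preamplified. The labels count 5 control and 4 treated rats but do not say that each library is 1 rat, so p-values measure the spread between these libraries.

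Heat shock proteins are chaperones that bind unfolded or aggregating proteins and help them to fold. In stressed cells the transcription factor HSF1 is released from chaperones and binds heat shock elements, repeated GAA and TTC units in the promoters of chaperone genes. In the ER, unfolded protein is sensed by IRE1 (gene Ern1), ATF6 and PERK (gene Eif2ak3), which act through XBP1, cleaved ATF6 and ATF4 to raise ER chaperones, folding enzymes and degradation factors. Heat shock genes are also known to respond to the warming, digestion and sorting of tissue.

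Library depth was 9156591 to 11332823 counts in the controls and 6228756 to 9629829 in the diabetic libraries. Controls 4 and 6 stood apart from the other libraries. Genes of the cell isolation response, 23 immediate-early and related genes that respond to tissue dissociation (Fos, Jun, Egr1 and others), held 2.52% and 3.18% of counts in controls 4 and 6. The same genes held 1.03%, 0.463% and 0.891% in controls 1, 3 and 5, and 1.86%, 2.01%, 1.33% and 2.16% in diabetic libraries 1, 2, 4 and 5. None of the 23 passed an unadjusted p of 0.05 between the groups with edgeR's quasi-likelihood test. Microglial identity genes held 3.17% and 2.90% of counts in controls 4 and 6, 3.81% to 4.06% in the other controls and 3.57% to 3.88% in the diabetic libraries. Of these 15 genes, Csf1r, Cx3cr1, P2ry12, Tmem119 and the C1q genes were abundant in all 9 libraries, and Siglech was at 0 in all 9. Markers of blood and border myeloid cells held 0.0460% to 0.0850% in controls and 0.0820% to 0.160% in diabetic libraries, and 8 of the 11 tested were higher at an unadjusted p below 0.05, with Ccr2 at 0 in all 9 libraries. Photoreceptor markers ranged from 0.0270% to 0.143% and from 0.0426% to 0.217%, inner retinal neuron markers from 0.00918% to 0.0203% and from 0.0133% to 0.0419%, and vascular markers from 0.0577% to 0.0941% and from 0.0606% to 0.0831%, controls first. Markers of Muller glia, of which Apoe and Vim are also microglial genes, ranged from 1.08% to 1.78% and from 1.30% to 1.42%. Most of this share was Apoe, at 10004 to 14906 CPM over the 9 libraries, followed by Glul (1060 to 1309) and Slc1a3 (600 to 974). Rlbp1 was at 24.2 to 60.2 CPM, so the share does not measure Muller glia alone. Of the inner retinal neuron markers, 7 of 16 tested were higher at an unadjusted p below 0.05. The part of these differences in the results below was not tested, and in sorted bulk RNA fewer cells of a type and less RNA per cell cannot be told apart.

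None of the 34 tested genes passed an adjusted p of 0.05 (edgeR quasi-likelihood test, Benjamini-Hochberg adjustment over 11748 genes), beside 8 of all genes (0.0681%). DESeq2's Wald test called 3 of the set (Chordc1, Hsp90b1 and Stip1), beside 598 of all genes, and limma-voom called 0 of the set, beside 4 of all genes. At an adjusted p below 0.1 the count was again 0, beside 223 of all genes (1.9%). At an unadjusted p below 0.05, 11 of the 34 were called, beside 18.9% of all genes. One of them, Sdf2l1, was higher in the diabetic libraries, beside 8.94% of all genes, and 10 were lower (Hspa4, Stip1, Chordc1, Hspd1, Hspa9, Hsp90b1, Hyou1, Canx, Atf6 and Xbp1), beside 10% of all genes. With other scalings the split moved. With upper-quartile factors 5 of the 34 were lower and 2 higher, beside 5.58% of all genes lower and 18.5% in either direction. Without factors 5 were lower and 3 higher, beside 3.64% of all genes lower and 17.4% in either direction. For 3 of the 34, Chordc1, Hsp90b1 and Canx, every diabetic library lay below every control, beside 8.44% of all genes without overlap in either direction (4.17% lower and 4.27% higher). Without factors the groups of Canx overlapped. The 3 genes without overlap were then Chordc1 and Hsp90b1, lower, and Manf, higher, beside 8.32% of all genes in either direction. With upper-quartile factors 2 genes lay lower without overlap, beside 8.3% of all genes in either direction. Leaving out each of the 9 libraries in turn, Chordc1, Stip1, Hspa4, Hsp90b1, Hyou1 and Canx kept an unadjusted p below 0.05 every time, while Hspd1, Hspa9, Atf6, Xbp1 and Sdf2l1 lost it 4 to 7 times. With upper-quartile factors, and also without factors, Hyou1, Canx, Atf6 and Xbp1 had an unadjusted p above 0.05, at log2 differences of −0.14, −0.13, −0.13 and −0.12 without factors.

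The direction was nevertheless shared by most of the genes. The fitted log2 difference, diabetic minus control, was below 0 for 28 of 34 (82.4%), beside 49.7% of all genes, except that Pdia6 was above 0 with upper-quartile factors and Pdia6 and Dnajb1 were above 0 without factors. The median log2 difference was −0.61 over the 14 heat shock genes and −0.22 over the 20 ER genes, beside 0.0017 over all genes. Without factors the median of all genes moved to 0.12, and the heat shock and ER medians to −0.46 and −0.10. Leaving out controls 4 and 6, an alternative chosen after the data were seen, the heat shock median was 0.024 and the ER median −0.12, and 6 genes of the set had an unadjusted p below 0.05, 5 lower and 1 higher (beside 14.9% of all genes). There Hsph1, Dnajb1, Dnajb4, Bag3, Ern1, Atf4 and Ddit3 moved above 0 and Creld2 moved below 0, so the shared direction of the heat shock genes rested on these controls. Leaving out diabetic 5 as well, the medians were −0.24 and −0.13, and 11 genes had an unadjusted p below 0.05, 8 lower and 3 higher (beside 16.2% of all genes).

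**Figure D1:**
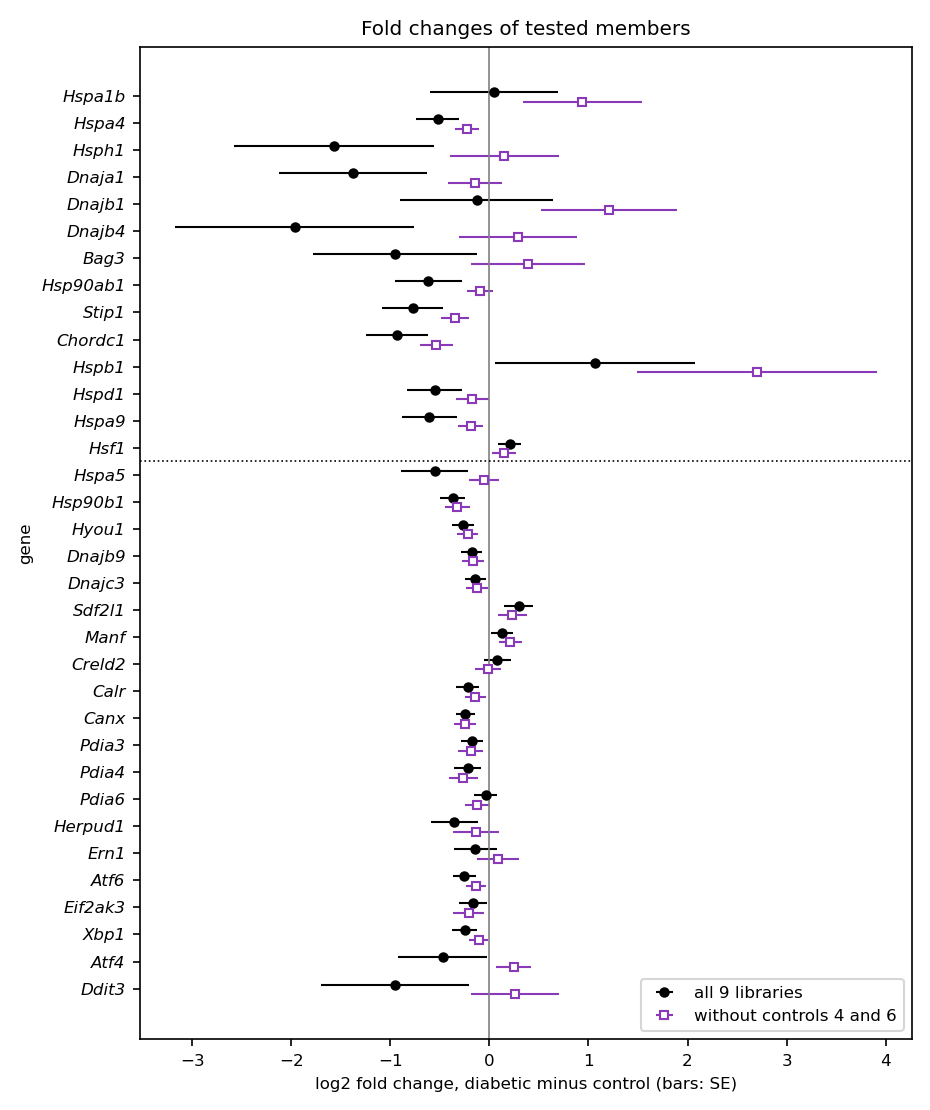
Log2 difference (diabetic minus control, bars are standard errors) for the 34 tested genes with all 9 libraries (filled circles) and without controls 4 and 6 (open squares), heat shock genes above the dotted line. With all libraries the heat shock genes run from −1.96 to 1.06 and the ER genes from −0.95 to 0.30, and the squares of Hsph1, Dnaja1 and Dnajb4 lie nearer 0 than their circles.

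The heat shock genes varied widely between libraries of the same group. Over the 5 controls, the highest library was at least 2-fold above the lowest for 13 of 14 heat shock genes and for 5 of 20 ER genes. The median standard deviation of log2 CPM (counts scaled to library size) over controls was 0.807 for the heat shock genes and 0.182 for the ER genes, beside 0.264 for all tested genes. Controls 4 and 6 were the 2 highest controls for 13 of the 14 heat shock genes, the exception being Hsf1, and for 7 of the 20 ER genes. Diabetic 5 was the highest diabetic library for 12 of the 14 and for 5 of the 20. Summed, the heat shock genes held 0.183% to 0.646% of counts in the controls and 0.181% to 0.388% in the diabetic libraries, and the ER genes 0.955% to 1.11% and 0.869% to 0.953%.

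**Figure D2:**
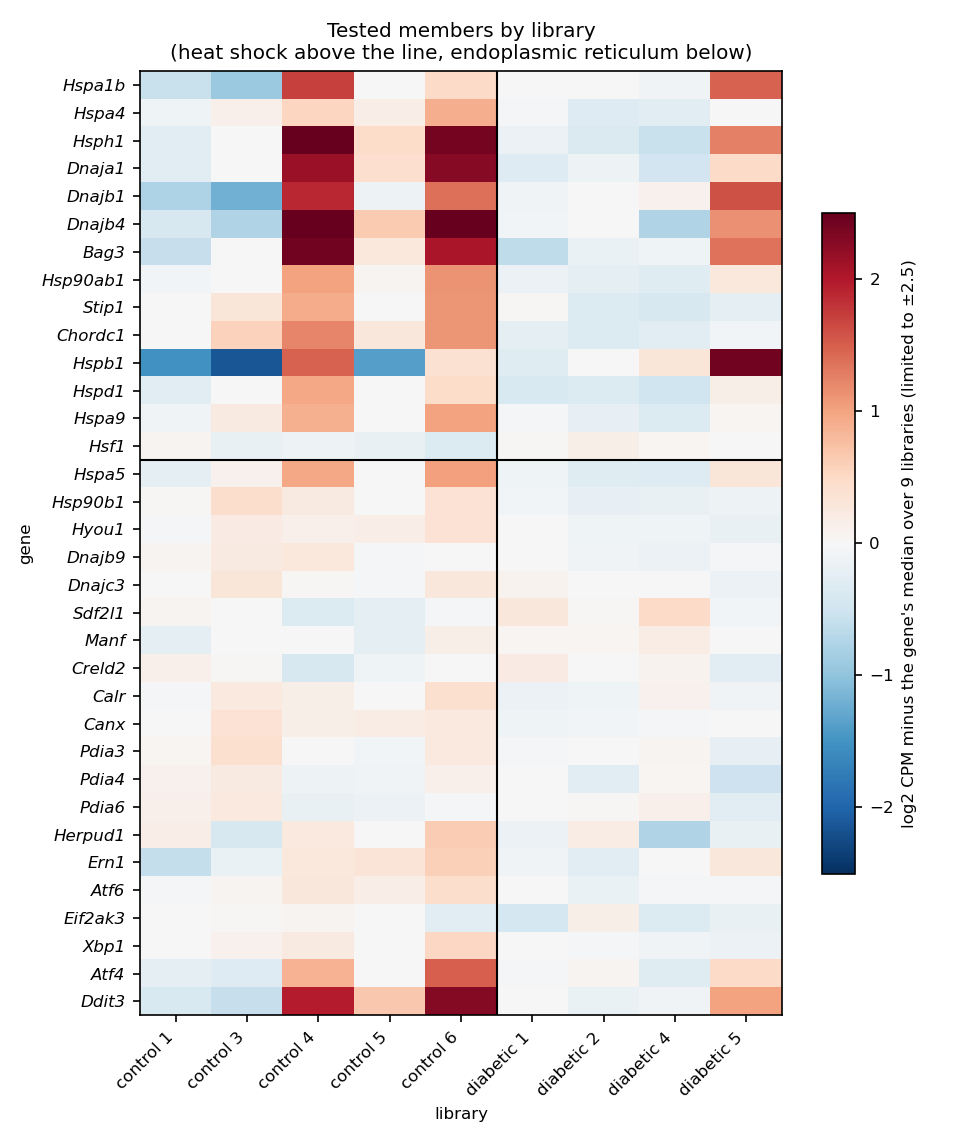
Level of each tested gene in each of the 9 libraries, as log2 CPM minus the gene's median over the 9 libraries (colour limited to ±2.5), with heat shock genes above ER genes. The heat shock block is highest in controls 4 and 6 and, for part of its genes, in diabetic 5.

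The Hsp70 family binds exposed hydrophobic stretches of unfolded proteins. Hspa1b, a stress-inducible Hsp70, was at 100.3, 77.5, 481, 147 and 204 CPM in controls 1, 3, 4, 5 and 6, an order kept for the controls from here on. It was at 147, 145, 139 and 405 CPM in diabetic libraries 1, 2, 4 and 5, likewise kept. Control 4 and diabetic 5 were the highest libraries of their groups, and the groups overlapped across nearly their whole range. The means were 202 ± 163 CPM (SD, n = 5) and 209 ± 131 CPM (SD, n = 4), a log2 difference of 0.049 (SE 0.65). Without diabetic 5 that difference was −0.50, without controls 4 and 6 it was 0.94, and without these and diabetic 5 it was 0.40, so its sign and size depended on single libraries.

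Hspa4, a nucleotide exchange factor for Hsp70, was at 159, 189, 249, 191 and 320.4 CPM in controls and at 166, 138, 141 and 172 CPM in diabetic libraries. Controls 4 and 6 were again the highest, and control 1 lay within the diabetic range. The group means of Hspa4, 222 ± 64.1 CPM (SD, n = 5) and 154 ± 17.0 CPM (SD, n = 4), gave a log2 difference of −0.52 (SE 0.22). The quasi-likelihood adjusted p for Hspa4 was 0.174, and the log2 difference was −0.23 without controls 4 and 6 and −0.28 without these and diabetic 5. Hsph1, a related exchange factor, spanned 115 to 1289 CPM in the controls, with 1289 and 722 in controls 4 and 6, and 94.6 to 333 CPM in the diabetic libraries. Its log2 difference of −1.57 had a standard error of 1.01. It was 0.15 without controls 4 and 6 and −0.44 without these and diabetic 5.

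A further 3 heat shock genes had too few counts to be tested, as read from the count table. Hspa8, the constitutive Hsp70 of the cytosol, had counts of 2, 3, 5, 3 and 6 in controls and 2, 1, 2 and 2 in diabetic libraries. Hsp90aa1, the inducible cytosolic Hsp90, had 5, 3, 3, 0 and 2 counts in controls and 4, 2, 0 and 1 in diabetic libraries. Hspa1a, a near-identical copy of Hspa1b, had 5, 3, 15, 2 and 6 counts in controls and 5, 6, 3 and 12 in diabetic libraries. These are at most 15 counts per library, so no level or difference can be read from them.

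In the deposited transcript assemblies, the transcript named Hspa8 was at 50.4, 62.5, 165, 66.8 and 134 TPM (an abundance scaled for transcript length and depth) in controls. It was at 57.0, 51.2 and 87.0 TPM in diabetic libraries 1, 2 and 5 and listed at 0 in diabetic 4. That transcript lies on chromosome 5 of build Rnor6 (99031013 to 99033107, minus strand), while the RefSeq promoter of Hspa8 in build GRCr8 lies on chromosome 8, so the name does not settle which copy was read. The transcripts named Hspa1a and Hspa1b start at 2699712 and 4877324 on chromosome 20 of Rnor6. Hspa1a was listed at 0 in controls 1 and 5 and in all 4 diabetic libraries of the assemblies, and at 29.3, 189 and 64.4 TPM in controls 3, 4 and 6. Hspa1b was also listed at 0 in diabetic 1 and 4, where it had 1485 and 871 counts, so a 0 in the assemblies need not mean absent RNA. Near-identical copies can share or lose reads, and how the authors counted reads is not given. Whether this affected Hspa1a, Hspa1b and Hspa8 was not tested, and their levels remain uncertain.

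J-domain proteins and Bag3 direct Hsp70 to its clients. Dnajb1, a J-domain partner of Hsp70 that is strongly heat-inducible, was at 179.5, 133, 1126, 279 and 794 CPM in controls and 289, 305, 327 and 915 CPM in diabetic libraries. Diabetic 5 lay between controls 6 and 4, and the other 3 diabetic libraries lay above controls 1, 3 and 5. Its log2 difference of −0.13 (SE 0.78) was above 0 under 11 of the 19 alternatives, at 0.049 without factors, 1.21 without controls 4 and 6 and 0.63 without these and diabetic 5. No direction can be read for Dnajb1. Dnaja1 and Dnajb4, both J-domain proteins, had their highest values in controls 4 and 6, at 1034 and 1118 CPM and at 551 and 758 CPM. In the other 7 libraries Dnaja1 spanned 166 to 323 CPM and Dnajb4 38.1 to 142 CPM. The log2 differences were −1.38 (SE 0.75) for Dnaja1 and −1.96 (SE 1.21) for Dnajb4, −0.15 and 0.29 without controls 4 and 6, and −0.38 and −0.19 without these and diabetic 5. Bag3, which couples Hsp70 to selective autophagy, was at 162 and 126 CPM in controls 4 and 6, 78.8 CPM in diabetic 5 and 19.8 to 36.8 CPM elsewhere, with a log2 difference of −0.95 (SE 0.83), 0.39 without controls 4 and 6 and −0.23 without these and diabetic 5.

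**Figure D3:**
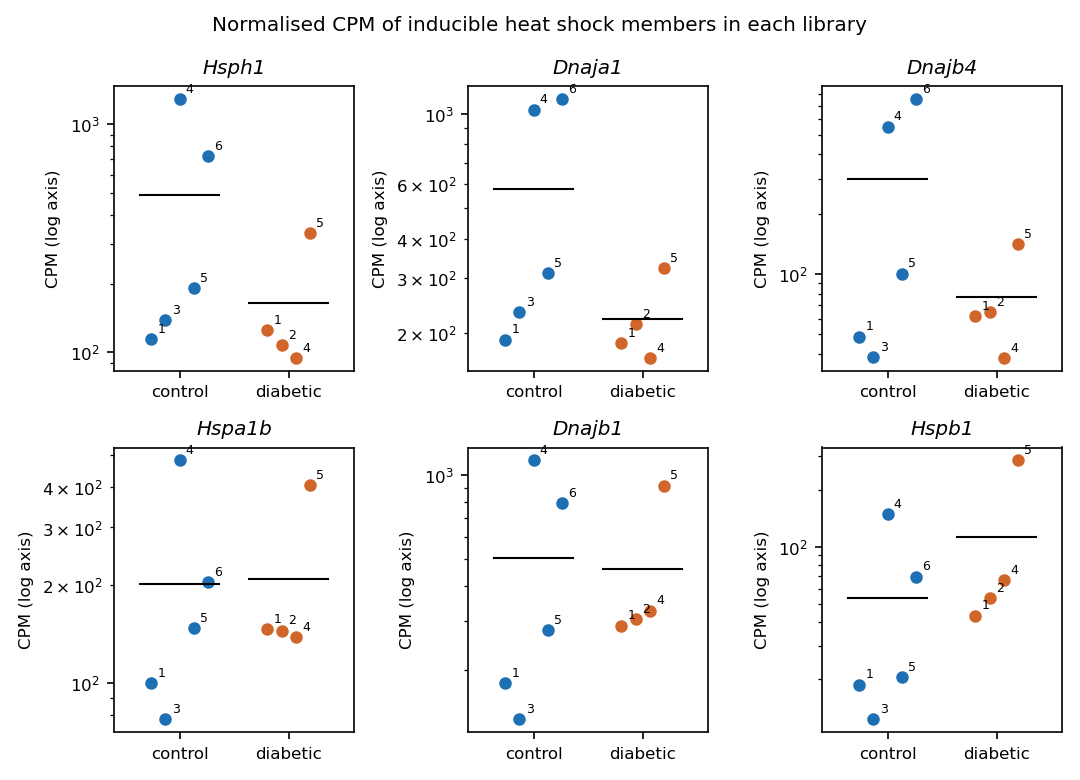
CPM on a log axis in each numbered library (controls blue, diabetic orange) for Hsph1, Dnaja1, Dnajb4, Hspa1b, Dnajb1 and Hspb1, with a line at the mean of each group. Controls 4 and 6 and diabetic 5 are high for most of them, and diabetic 5 is at 0.187 times control 6 for Dnajb4 and 4.11 times control 6 for Hspb1.

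The high libraries did not share 1 profile. Diabetic 5 was at 4.11 times the level of control 6 for Hspb1, 1.99 times for Hspa1b and 1.15 times for Dnajb1. For Hsph1, Dnaja1 and Dnajb4 it was at 0.462, 0.288 and 0.187 times the level of control 6. Hspb1, a small heat shock protein that holds unfolded proteins in solution, was at 18.7, 12.2, 148, 20.5 and 69.5 CPM in controls and 43.2, 53.7, 66.4 and 285 CPM in diabetic libraries. All 4 diabetic libraries exceeded controls 1, 3 and 5, and control 4 exceeded all diabetic libraries but diabetic 5. The log2 difference of Hspb1 was 1.06 (SE 1.01), with an adjusted p of 0.552 by the quasi-likelihood test. Without diabetic 5 it was 0.017, with an adjusted p of 0.994 by the same test. Without controls 4 and 6, the highest controls for Hspb1, it was 2.70 with an adjusted p of 0.268 by that test, and without these and diabetic 5 it was 1.66 with an adjusted p of 0.0267. Hspb1 was the only gene of the set called under that last alternative, beside 19 of all 11761 genes (0.162%), and its size depended on which libraries were kept.

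Hsp90 matures kinases and receptors with the help of co-chaperones. Chordc1, an Hsp90 co-chaperone, was at 70.4, 104, 164, 85.9 and 152 CPM in controls and at 60.5, 55.5, 57.8 and 67.5 CPM in diabetic libraries. All diabetic libraries lay below all controls, the nearest pair being diabetic 5 and control 1. The means of Chordc1 were 115 ± 40.9 CPM (SD, n = 5) and 60.3 ± 5.20 CPM (SD, n = 4), 1.91-fold higher in controls. Its log2 difference of −0.93 (SE 0.31) had a quasi-likelihood adjusted p of 0.105, and it was −0.53 without controls 4 and 6 and −0.59 without these and diabetic 5. It passed an unadjusted p of 0.05 under all 19 alternatives and had an adjusted p below 0.05 under 3 of them, with quasi-likelihood, DESeq2 or limma adjusted p from 0.00593 to 0.516. Its reference transcript spans 17421557 to 17446165 on the plus strand of chromosome 8 in build Rnor6. In the authors' deposited table its log2 fold change was −0.79 with an adjusted p of 0.0181, the only listed gene of the set below 0.05 there. That table listed 35 genes of the set and 12069 genes in all, of which 254 were below 0.05. Of the genes lower here at an unadjusted p below 0.05, Hspa4, Stip1, Chordc1 and Hspa9 were also below 0.05 unadjusted in the deposited comparison, whose model is not stated. Hspd1, Hsp90b1, Hyou1, Canx, Atf6 and Xbp1 were not, with unadjusted p of 0.069, 0.31, 0.39, 0.60, 0.43 and 0.48 in that comparison.

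Stip1, which passes clients from Hsp70 to Hsp90, was at 136, 168, 261, 136 and 292 CPM in controls and 138, 107, 103 and 115 CPM in diabetic libraries. Diabetic 1 lay just above controls 1 and 5, and the other 3 lay below all controls. The means of Stip1 were 198 ± 73.1 CPM (SD, n = 5) and 116 ± 15.7 CPM (SD, n = 4). Its log2 difference of −0.78 (SE 0.31) had an adjusted p of 0.153 by quasi-likelihood test, and it was −0.35 without controls 4 and 6 and −0.34 without these and diabetic 5. Hsp90ab1, the constitutive cytosolic Hsp90, spanned 585 to 1348 CPM in controls, highest in controls 6 and 4, and 502 to 736 CPM in diabetic libraries, with a log2 difference of −0.61 (SE 0.34), −0.10 without controls 4 and 6 and −0.23 without these and diabetic 5.

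In mitochondria, Hspd1 forms the folding chamber Hsp60 and Hspa9 pulls proteins in through the inner membrane. Hspd1 was at 30.7, 36.9, 72.2, 36.8 and 50.7 CPM in controls and 28.1, 29.0, 26.0 and 40.7 CPM in diabetic libraries. Diabetic 5 alone lay within the control range. For Hspd1 the log2 difference was −0.55 (SE 0.28) and its adjusted p by the quasi-likelihood test was 0.260. It was −0.32 without control 4, −0.17 without controls 4 and 6 and −0.33 without these and diabetic 5. Hspa9 was at 76.4, 95.1, 151, 81.0 and 162 CPM in controls and 78.6, 70.5, 64.2 and 83.5 CPM in diabetic libraries. Diabetic 1 and 5 overlapped the controls. The log2 difference of Hspa9 was −0.61 (SE 0.27), −0.19 without controls 4 and 6 and −0.25 without these and diabetic 5, and its adjusted p by the quasi-likelihood test was 0.211.

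Hsf1, which encodes the heat shock transcription factor, was at 44.8, 37.5, 39.1, 37.3 and 33.9 CPM in controls and 43.7, 47.4, 43.9 and 42.7 CPM in diabetic libraries. Control 6, high for most heat shock genes, was the lowest library for Hsf1, and control 1 lay within the diabetic range. The means were 38.5 ± 3.99 CPM (SD, n = 5) and 44.4 ± 2.06 CPM (SD, n = 4), a log2 difference of 0.21 (SE 0.12). The quasi-likelihood adjusted p for Hsf1 was 0.307.

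**Figure D4:**
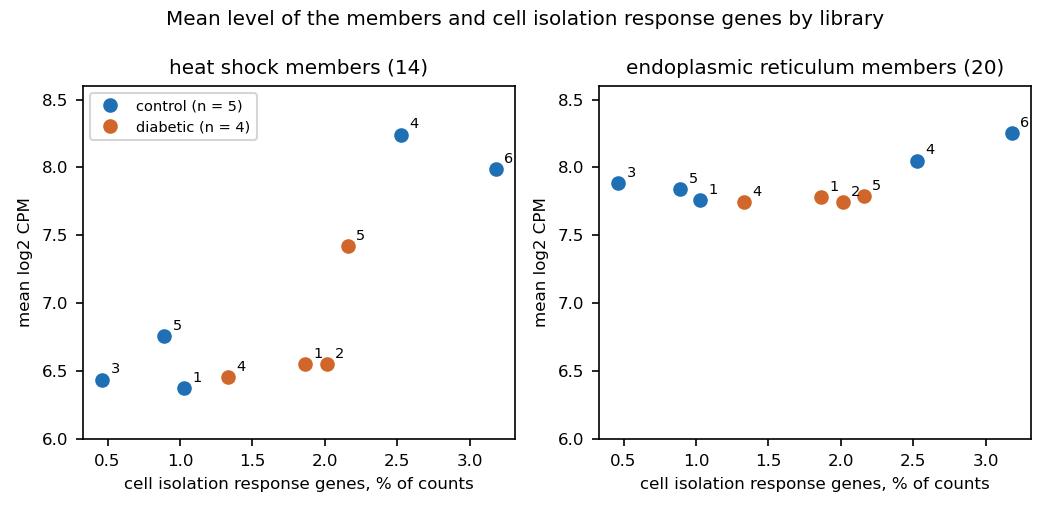
Mean log2 CPM of the tested heat shock and ER genes against the share of counts (%) from the cell isolation response genes, 1 point per numbered library, controls blue and diabetic orange. Controls 4 and 6, at 2.52% and 3.18%, have heat shock means of 8.24 and 7.99, above the other 7 libraries (6.37 to 7.42).

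The 2 controls with the largest share of isolation genes had the highest heat shock means of the 9 libraries, and the diabetic library with the largest share, diabetic 5, had the highest heat shock mean of its group. The mean log2 CPM of the 14 heat shock genes was 6.37, 6.44, 8.24, 6.76 and 7.99 in controls and 6.55, 6.55, 6.46 and 7.42 in diabetic libraries. The isolation genes held 2.16% of counts in diabetic 5, 1.33% to 2.01% in the other diabetic libraries and 0.463% to 1.03% in controls 1, 3 and 5. Their part in the heat shock levels was not tested. The ER means ran from 7.76 to 8.25 in controls, highest in controls 6 and 4, and from 7.74 to 7.79 in diabetic libraries. With the isolation genes as a covariate, 12 of the 34 genes had a quasi-likelihood adjusted p below 0.05, all lower in the diabetic libraries, beside 1254 of all 11748 genes (10.7%). These were Atf4, Chordc1, Ddit3, Dnaja1, Dnajb4, Hsp90ab1, Hsp90b1, Hspa4, Hspa5, Hspa9, Hspd1 and Stip1. The covariate was not fitted without controls 4 and 6. Without these controls and with no covariate, Atf4 (0.25), Ddit3 (0.26) and Dnajb4 (0.29) were above 0. The rest of the 12 ran from −0.53 (Chordc1) to −0.055 (Hspa5). Leaving out diabetic 5 as well, Atf4 (0.090) alone was above 0.

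The ER genes had smaller differences and tighter groups. Hsp90b1, the Hsp90 of the ER, was at 1324, 1756, 1531, 1303 and 1682 CPM in controls and 1237, 1130.0, 1141 and 1189 CPM in diabetic libraries. Every diabetic library lay below every control, and controls 4 and 6 did not stand out. The means of Hsp90b1 were 1519 ± 205 CPM (SD, n = 5) and 1174 ± 49.2 CPM (SD, n = 4), 1.29-fold higher in controls. Its log2 difference was −0.37 (SE 0.13), or −0.32 without controls 4 and 6, and its adjusted p by the quasi-likelihood test was 0.112. Canx, calnexin, a membrane lectin that retains unfinished glycoproteins, was at 1132, 1446, 1254, 1283 and 1341 CPM in controls and 1047, 1081, 1117 and 1124 CPM in diabetic libraries. The groups of Canx did not overlap, with control 1 just above diabetic 5, but without factors they overlapped. The reference transcript of Canx spans 35800942 to 35833861 on the minus strand of chromosome 10 in build Rnor6. The Canx means of 1291 ± 115 CPM (SD, n = 5) and 1092 ± 35.5 CPM (SD, n = 4) differed by −0.24 on the log2 scale (SE 0.098). The adjusted p of Canx by the quasi-likelihood test was 0.167.

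Hspa5, the ER Hsp70 also called BiP and the usual readout of ER stress, was at 1242, 1593, 2910.0, 1479 and 3000.1 CPM in controls and 1366, 1195, 1184 and 1828 CPM in diabetic libraries. It resembled the heat shock genes in being highest in controls 4 and 6 and, among diabetic libraries, in diabetic 5. The log2 difference of Hspa5 was −0.55 (SE 0.34), −0.055 without controls 4 and 6 and −0.21 without these and diabetic 5, and its adjusted p by the quasi-likelihood test was 0.344. Hyou1, an ER exchange factor of the Hsp70 family, was at 153, 182, 172, 176 and 201 CPM in controls and 157, 147, 146 and 139 CPM in diabetic libraries. Diabetic 1 lay above control 1, and the other 3 lay below all controls. The log2 difference of Hyou1 was −0.26 (SE 0.11) and its adjusted p by the quasi-likelihood test was 0.173.

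Sdf2l1, an ER protein that works with BiP and its J-domain partners, was at 178, 169, 132, 143 and 165 CPM in controls and 205, 173, 235 and 161 CPM in diabetic libraries. Diabetic 1 and 4 lay above all controls, and diabetic 2 and 5 lay within the control range. Its means of 158 ± 19.0 CPM (SD, n = 5) and 193 ± 33.5 CPM (SD, n = 4) gave a log2 difference of 0.30 (SE 0.14). The quasi-likelihood adjusted p for Sdf2l1 was 0.241. Without diabetic 4, its highest library, the difference was 0.19, and its unadjusted p was above 0.05 there and without control 4, control 5 or diabetic 1. Manf and Creld2, secreted ER stress proteins, were the other ER genes above 0, with log2 differences of 0.13 and 0.08 and groups that overlapped. Without factors the difference of Manf was 0.25, at an unadjusted quasi-likelihood p of 0.031, and every diabetic library lay above every control. The J-domain proteins Dnajb9 and Dnajc3, the lectin Calr and the disulphide isomerases Pdia3, Pdia4 and Pdia6 had log2 differences between −0.22 and −0.04. Herpud1, a component of ER-associated degradation, spanned 766 to 1569.9 CPM in controls and 607 to 1152 CPM in diabetic libraries, with a log2 difference of −0.35 (SE 0.24), or −0.14 without controls 4 and 6.

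**Figure D5:**
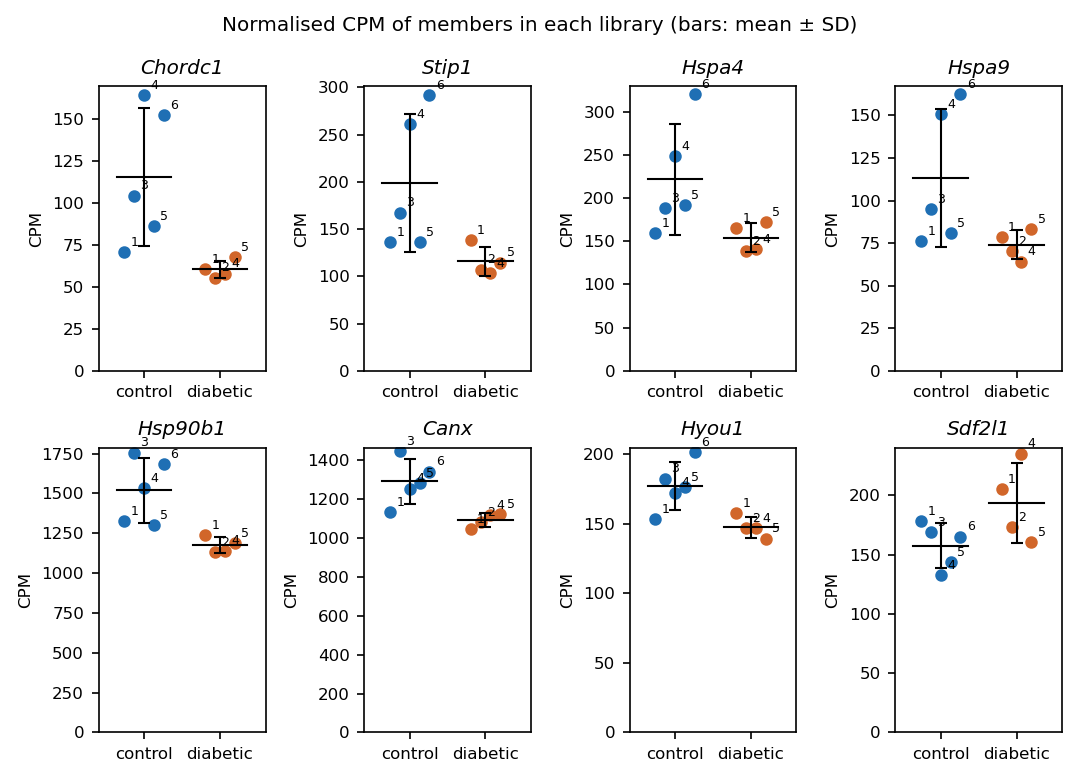
CPM in each numbered library (controls blue, diabetic orange; bars are mean ± SD, n = 5 and n = 4) for 8 genes at an unadjusted p below 0.05, 7 lower in the diabetic libraries and Sdf2l1 higher. Groups of Chordc1, Hsp90b1 and Canx do not overlap, whereas in the other panels at least 1 diabetic library reaches the control range.

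Of the 3 sensors, Atf6, a membrane-bound transcription factor, was at 108, 115, 134, 124 and 149 CPM in controls and 110.2, 98.5, 106 and 109 CPM in diabetic libraries. Control 1 lay within the diabetic range, and controls 4 and 6 were the highest. The log2 difference of Atf6 was −0.25 (SE 0.12), or −0.14 without controls 4 and 6, and its adjusted p by the quasi-likelihood test was 0.229. Ern1 was at 15.4 to 34.7 CPM in controls and 19.0 to 28.0 CPM in diabetic libraries. Eif2ak3 was at 34.0 to 42.9 CPM and 30.1 to 45.3 CPM, with groups that overlapped.

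Xbp1, spliced by IRE1 into an active transcription factor, was at 199, 214, 233, 198 and 286 CPM in controls and 202, 192, 186 and 179 CPM in diabetic libraries. Diabetic 1 lay above controls 1 and 5, and the counts per gene do not separate spliced from unspliced Xbp1. The log2 difference of Xbp1 was −0.25 (SE 0.13), or −0.15 without control 6 and −0.11 without controls 4 and 6, and its adjusted p by the quasi-likelihood test was 0.261. Atf4, which PERK signalling raises at translation, was at 228, 215, 494, 269 and 761 CPM in controls and 260.2, 281, 218 and 373 CPM in diabetic libraries. Ddit3, the ATF4 target CHOP, was at 19.8, 17.3, 100.1, 41.1 and 126 CPM in controls and 25.8, 22.8, 24.2 and 51.9 CPM in diabetic libraries. Both genes were highest in controls 6 and 4, and diabetic 5 was the highest diabetic library for both. Their log2 differences were −0.47 (SE 0.45) for Atf4 and −0.95 (SE 0.75) for Ddit3, 0.25 and 0.26 without controls 4 and 6, and 0.090 and −0.10 without these and diabetic 5. Without control 6 alone they were −0.089 and −0.51. Trib3, a pseudokinase induced by CHOP, had too few counts to be tested, with 8, 3, 6, 10 and 4 in controls and 18, 8, 3 and 26 in diabetic libraries.

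Promoters were examined because genes of the set shared library patterns. RefSeq (build GRCr8) held a promoter for 30 of the 39 genes, 250 bases before the start and 50 after, and 33469 promoters in all. A heat shock element of 3 alternating GAA and TTC units, each pair 2 bases apart, was found on either strand in 267 of all promoters (0.798%) and in 6 of the set, all heat shock genes (Chordc1, Dnaja1, Hspa8, Hspd1, Hspe1 and Hsph1). An ER stress response element, CCAAT and CCACG with 9 bases between them on either strand, was found in 22 of all promoters (0.0657%) and in 7 of the set, all ER genes (Calr, Canx, Creld2, Dnajc3, Hsp90b1, Hspa5 and Xbp1). Its second form, ATTGG and CCACG with 1 base between them, was in 17 promoters (0.0508%), among them Herpud1 and Hyou1. The unfolded protein response element TGACGTGG was in 199 promoters (0.595%), among them Bag3 and Hyou1, where it overlaps the second form. The composite ATF site TGATGNAAT was in 366 promoters (1.09%) and in none of the set. A match is a description of these letters and not a site of binding. The genes were chosen as heat shock and ER stress genes, so matches to elements of these pathways are no result of these data.

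The stretches that hold the matches are shown for 3 genes with a heat shock element, on the gene's own strand with the matched bases in capitals; where capitals run on, matches overlap. They lie at chr8:23650828-23650856 (Chordc1, plus strand, after the start), chr9:64084237-64084287 (Hspd1, minus strand) and chr8:50080276-50080496 (Hspa8, plus strand).
Chordc1: ccgGAACGTTCGGGAAGATTCCTGAAgca
Hspd1: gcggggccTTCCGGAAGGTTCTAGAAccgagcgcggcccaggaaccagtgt
Hspa8: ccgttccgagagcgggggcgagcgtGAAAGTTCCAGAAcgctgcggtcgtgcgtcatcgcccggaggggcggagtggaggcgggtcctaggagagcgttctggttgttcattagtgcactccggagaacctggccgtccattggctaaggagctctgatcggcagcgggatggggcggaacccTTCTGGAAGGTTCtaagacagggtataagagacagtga
Chordc1 and Hspd1, chosen partly by p-value, were lower in the diabetic libraries at an unadjusted p below 0.05. Of all 14 tested heat shock genes, 11 had a log2 difference below 0 with all 9 libraries, while their median was 0.024 without controls 4 and 6. Controls 4 and 6 were the 2 highest controls for 13 of the 14 tested heat shock genes, with or without a match.

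The stretches with an ER stress response element are shown for the 2 ER genes whose groups did not overlap, for Hspa5 and Xbp1, and with its second form for Hyou1. They lie at chr7:23012322-23012494 (Hsp90b1, minus strand), chr10:35158044-35158107 (Canx, minus strand), chr3:38452948-38453015 (Hspa5, plus strand), chr14:84604533-84604601 (Xbp1, plus strand) and chr8:53602669-53602829 (Hyou1, plus strand).
Hsp90b1: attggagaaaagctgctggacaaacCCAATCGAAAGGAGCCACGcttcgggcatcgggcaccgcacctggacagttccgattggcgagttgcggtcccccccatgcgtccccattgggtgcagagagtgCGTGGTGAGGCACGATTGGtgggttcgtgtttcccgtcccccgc
Canx: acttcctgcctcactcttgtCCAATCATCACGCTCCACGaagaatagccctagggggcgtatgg
Hspa5: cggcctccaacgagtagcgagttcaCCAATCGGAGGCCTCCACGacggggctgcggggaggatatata
Xbp1: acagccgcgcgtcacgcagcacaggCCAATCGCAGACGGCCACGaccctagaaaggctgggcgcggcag
Hyou1: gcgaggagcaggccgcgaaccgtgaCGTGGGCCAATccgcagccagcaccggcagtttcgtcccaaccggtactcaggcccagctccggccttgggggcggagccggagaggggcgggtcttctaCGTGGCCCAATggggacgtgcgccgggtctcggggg
All 5 were lower on average in the diabetic libraries, Hspa5 without passing an unadjusted p of 0.05, while Creld2, with the same element as Hspa5, had a log2 difference of 0.08 (SE 0.14). The 5 were chosen partly by p-value or group overlap, so no link between element and direction can be read from them. Of all 20 tested ER genes, 17 had a log2 difference below 0.

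Other genes of the same pathways were examined as 3 lists. Of the cytosolic chaperone network, 38 of 42 genes were tested, 13 were lower and 0 higher at an unadjusted p below 0.05 (beside 10% and 8.94% of all genes), and 7 had every diabetic library below every control (beside 4.17%). The median log2 difference of that list was −0.24, and 30 of 38 were below 0. Its smallest p-values belonged to Cct3 and Cct4, subunits of the TRiC ring that folds actin and tubulin, and to St13, an Hsp70 co-chaperone. The control mean of Cct3 was 241 ± 35.5 CPM (SD, n = 5) and the diabetic mean 169.8 ± 16.1 CPM (SD, n = 4). Its log2 difference of −0.50 (SE 0.15) had a quasi-likelihood adjusted p of 0.0927, the only one below 0.1 in the 3 lists. Cct4 and St13 had log2 differences of −0.41 and −0.50 with quasi-likelihood adjusted p of 0.112 and 0.123.

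Of the ER folding and degradation list, 45 of 50 genes were tested, with 6 lower and 3 higher at an unadjusted p below 0.05 and a median log2 difference of −0.065. The 9 called of 45 are near the 18.9% of all genes called at that threshold. The lower genes included Edem1 (−0.41), which targets misfolded glycoproteins for degradation, Wfs1 (−0.83), an ER membrane protein, and Ssr1 (−0.29), a subunit of the translocon-associated complex. The higher ones were Fkbp2 (0.48), an ER prolyl isomerase, Ssr4 (0.42), another subunit of that complex, and Sec61b (0.53), a subunit of the translocation channel. Of the integrated stress response list, 27 of 32 genes were tested, with 4 lower and 1 higher and a median of −0.095. The 5 called of 27 are likewise near 18.9%. Asns, the asparagine synthetase that ATF4 induces, was higher by 0.62 on the log2 scale. Wars and Eprs, which charge transfer RNAs, and Eif2ak1, an eIF2alpha kinase, were lower by log2 differences of −0.31, −0.30 and −0.30. No gene of the 3 lists passed an adjusted p of 0.05.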

How the data were processed

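RNA-seq counts per gene symbol were used as the authors deposited them, for 5 control and 4 diabetic libraries grouped by their titles and treatment labels. Per the submitters' processing notes the tools were bcl2fastq 2.18.0.12, TopHat2 2.0.14, StringTie 1.2.4 and edgeR, on Rnor_6.0. How reads were counted, and with which strand setting, is not given in the sources used here, so antisense or overlapping genes cannot be separated. A second table holds log2 fold changes and p-values that the authors deposited; its counts equalled the count table. TPM values come from transcript assemblies the authors deposited, in which 8.63% to 10.4% of transcripts carry a reference identifier.

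Genes were filtered with filterByExpr (minimum count 10, minimum total 15), which kept 11748 of 17822 genes with any count. The groups were compared by quasi-likelihood F tests in edgeR 4.0.16 (robust, TMM factors, R 4.3.3) with Benjamini-Hochberg adjustment over all tested genes and a threshold of 0.05. CPM values use TMM factors. The SE of a log2 difference was derived from its size and p-value. No pair of libraries agreed within sampling noise (smallest chi-square per degree of freedom 11.7). Alternatives were other scalings, no filter, DESeq2 1.42.0, limma-voom (limma 3.58.1), a replicate block, a cell isolation covariate, leaving out each library, and leaving out controls 4 and 6 with or without diabetic 5. The last pair was chosen after seeing the data. Values in every library are given for genes at an unadjusted p below 0.05, genes whose groups did not overlap, and Hspa1a, Hspa1b, Hspa8, Hsp90aa1, Dnajb1, Hsf1, Hspa5, Xbp1, Atf4 and Ddit3; Hspb1, and single libraries of Hsph1, Dnaja1, Dnajb4 and Bag3, were added after their values were seen. The companion lists name up to 3 genes per direction by smallest p. The genes and lists were chosen with earlier results of these data known. Promoters were taken from RefSeq GRCr8 and searched for motifs on both strands.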

Additional observations from a re-analysis of the deposited data

Results flagged for a closer look

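In 7 of 68 groups of values examined (34 genes in 2 groups), 1 library lay far from the rest of its group by Dixon's test. For independent, normally distributed values chance gives about 1 in 20. The genes share the same libraries, so the 7 cannot be set against that rate. Of these, 6 concern diabetic 5, which was the highest diabetic library for each. Hspa1b was at 405 CPM there, against 139 to 147 CPM in the other diabetic libraries. Hsph1 was at 333 CPM, against 94.6 to 125 CPM. Dnajb1 was at 915 CPM, against 289 to 327 CPM. Bag3 was at 78.8 CPM, against 19.8 to 28.3 CPM. Hspb1 was at 285 CPM, against 43.2 to 66.4 CPM. Ddit3 was at 51.9 CPM, against 22.8 to 25.8 CPM. The seventh was Eif2ak3 in control 6, at 34.0 CPM against 40.9 to 42.9 CPM in the other controls.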

How the results depend on the processing

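Of 646 comparisons (34 genes, 19 alternatives), 600 kept direction and side of the adjusted threshold, 17 became called and 29 changed sign. The cause was not tested. Genes called over all genes (8) were 31 with upper-quartile factors, 29 without factors, 42 without a filter, 598 with DESeq2, 4 with limma-voom, 0 with the replicate block, 1254 with the isolation covariate, 0 without controls 4 and 6, 19 without these and diabetic 5, and 0 to 75 leaving out each library. Genes of the set called (0) were 3 with DESeq2 (Chordc1, Hsp90b1, Stip1), 12 with the covariate, 1 without controls 4 and 6 and diabetic 5, and 0 to 1 leaving out each library (Chordc1 without control 1). Those at an unadjusted p below 0.05 (11) were 7 with upper-quartile factors (beside 18.5% of all genes), 4 with the block (9.61%) and 19 with the covariate (28.4%). They were 6 without controls 4 and 6 (14.9%) and 6 to 16 leaving out each library (12.8% to 23.5%). Those without overlap (3) were 2 with upper-quartile factors (beside 8.3% of all genes) and 3 without factors (8.32%). They were 5 without controls 4 and 6 (15.3%), 8 without these and diabetic 5 (22.8%), and 3 to 7 leaving out each library (10.1% to 14.5%). The 3 pathway lists held 38, 45 and 27 tested genes, of which 27 in all had an unadjusted p below 0.05 (beside 18.9% of all genes). That count was 17 with upper-quartile factors (beside 18.5%), 13 without factors (17.4%) and 5 with the block (9.61%).

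Signs changed for Pdia6 (0.039 upper-quartile, 0.072 without factors, 0.016 block, −0.089 to 0.036 leaving out each library). They changed for Dnajb1 (0.049 without factors, 0.19 limma-voom, 0.26 block, 0.068 covariate, −0.71 to 0.41 leaving out each library, 1.21 without controls 4 and 6, 0.63 without these and diabetic 5). Ern1 was at 0.067 with the block and 0.086 without controls 4 and 6. Hspa1b was at −0.50 (without diabetic 5) to 0.66 (without control 4) leaving out each library. Without controls 4 and 6, Atf4 (0.25), Ddit3 (0.26), Hsph1 (0.15), Dnajb4 (0.29), Bag3 (0.39) and Creld2 (−0.014) changed sign. Without diabetic 5 as well, Atf4 was at 0.090, while Ddit3 (−0.10), Hsph1 (−0.44), Dnajb4 (−0.19), Bag3 (−0.23) and Creld2 (0.076) had their first sign again.

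The deviations of same-numbered libraries from their group means had r of 0.20, −0.11 and 0.016 for numbers 1, 4 and 5. For pairs of unlike number r ran from −0.35 to 0.30. So few pairs cannot show whether the numbers pair libraries, and the labels do not say. The block dropped the calls to 0 genes, with 4 of the set at an unadjusted p below 0.05, near the share of all genes. Precision is limited by 4 and 5 libraries and, for Hspa8, Hsp90aa1, Hspa1a and Trib3, by low counts.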
